A study of Mus musculus with 3 samples.

Results

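The TALE homeobox genes Meis1, Meis2, Pknox1, Pbx2 and Pbx3 were followed across 3 genotypes of the embryonic mouse testis. Members were every non-control probe whose transcript accession carries 1 of these 5 symbols in a RefSeq gene table. That rule gave 8 probes among the 41149 non-control probes of the array, or 5 genes among the 16531 that could be named. The rule itself uses no measured value, though the 5 genes were picked with earlier results of these data known. Gonads of male embryos of the MCH mouse line were taken at embryonic day 14.5. The double knockout lacked both Cyp26b1 and Stra8, the Cyp26b1 knockout kept both Stra8 alleles, and the wild type carried both genes intact. No other allele or treatment is given for any of them. Each genotype has 2 one-colour Agilent arrays, described as biological duplicates. Neither labels nor headers say if 1 embryo or a pool went onto an array, so the p-values measure the spread between these arrays only.

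TALE proteins carry a homeodomain that is longer by a short loop between its first helices. The Meis and Pknox (Prep) proteins form a complex with the Pbx proteins off and on DNA, and these complexes bind together with Hox proteins and raise their choice of sites. Binding to Meis or Pknox proteins also brings Pbx proteins into the nucleus. CYP26B1 is the enzyme that clears retinoic acid from the fetal testis, and STRA8 is a germ cell factor that retinoic acid turns on before meiosis. Several Hox genes and Meis genes are known targets of retinoic acid in other embryonic tissues, and Meis2 also bears the name Stra10, for stimulated by retinoic acid.

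The arrays of each genotype lay close together, with a Pearson correlation of 0.995 between the double knockout arrays, 0.994 between the Cyp26b1 knockout arrays and 0.996 between the wild type arrays over 24500 probes. Between 61.9% and 68.6% of probes were well above background on each array. Each genotype occupied a slide of its own, and the Cyp26b1 knockout slide was also scanned on another day than the other 2 slides. Slide and genotype therefore cannot be told apart. A level that sets the Cyp26b1 knockout apart from both other genotypes also cannot be told apart from scan day. This holds, among others, for Meis2, Pbx2 A_52_P339182, Pbx3, Tgif2, Mkx, Irx6 and the brighter Pbx4 probe below. The Stra8 probe stood at a log2 level of 5.98 and 6.14 on the arrays labelled double knockout, 7.19 and 7.04 on the Cyp26b1 knockout arrays and 3.73 and 2.41 on the wild type arrays. Cyp26b1 gave 4.11 and 3.91 on the double knockout arrays, 4.27 and 3.83 on those of the Cyp26b1 knockout and 4.03 and 3.83 in wild type. Neither targeted gene was low where it is labelled deleted, and the sources used here do not place the probes relative to the deletions. These probes therefore do not check the labels, and genotypes are as labelled throughout. Cyp26a1, which encodes another retinoic acid hydroxylase, showed a log2 change of 5.05 ± 0.32 in the double knockout against wild type (SE, adjusted p = 0.000382). The Cyp26b1 knockout showed 4.84 ± 0.32 against wild type (adjusted p = 8.781e-05). In wild type only 1 array had the probe well above background, and with normexp over all spots the changes were 1.81 in the double knockout and 1.57 in the Cyp26b1 knockout, both still passing.

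All 8 member probes were well above background on all 6 arrays, and none was saturated or marked by the scanner software as an outlier spot. Levels are log2 signals relative to the 75th percentile of the array, so that 0 is that percentile. Levels of different probes are not set against each other, since each probe binds its target differently. A change passed when its adjusted p in limma, corrected over all 27865 tested probes, was below 0.05.

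In the Cyp26b1 knockout against wild type, 4 of 8 member probes passed, 2 higher and 2 lower. That is 50% of them, where 53.4% of all tested probes passed, 25.2% higher and 28.2% lower. The members were thus called about as often as any probe. Both Meis2 probes were lower, 1 of the 2 Pbx2 probes and the Pbx3 probe were higher, and the Meis1 probes and the Pknox1 probe did not pass. Of the 8 probes 1 passed in the double knockout against wild type, the Pbx3 probe, which was lower. That is 12.5%, against 11.6% of all tested probes, 5.09% higher and 6.46% lower. Between the mutants, which here always means the double knockout relative to the Cyp26b1 knockout, 4 of 8 passed, 2 higher and 2 lower. That is again 50%, against 46.0% of all tested probes, 23.7% higher and 22.3% lower. The 4 were again the Meis2, Pbx2 and Pbx3 probes, now with the opposite directions. The 3 comparisons share arrays pairwise, so their values are given side by side and are not independent of each other.

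The median size over the 8 probes was a log2 change of 0.47 in the Cyp26b1 knockout against wild type, where that of all tested probes was 0.46. Between the mutants the median sizes were 0.39 for the members and 0.40 for all tested probes. They were 0.06 for the members and 0.21 for all tested probes in the double knockout against wild type. Arrays did not overlap between the groups for 6 of 8 member probes in the Cyp26b1 knockout against wild type, where this held for 79.0% of all tested probes. The same count was 1 of 8 in the double knockout against wild type, beside 62.0% of all tested probes. Between the mutants it was 6 of 8, beside 73.4%.

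**Figure D1:**
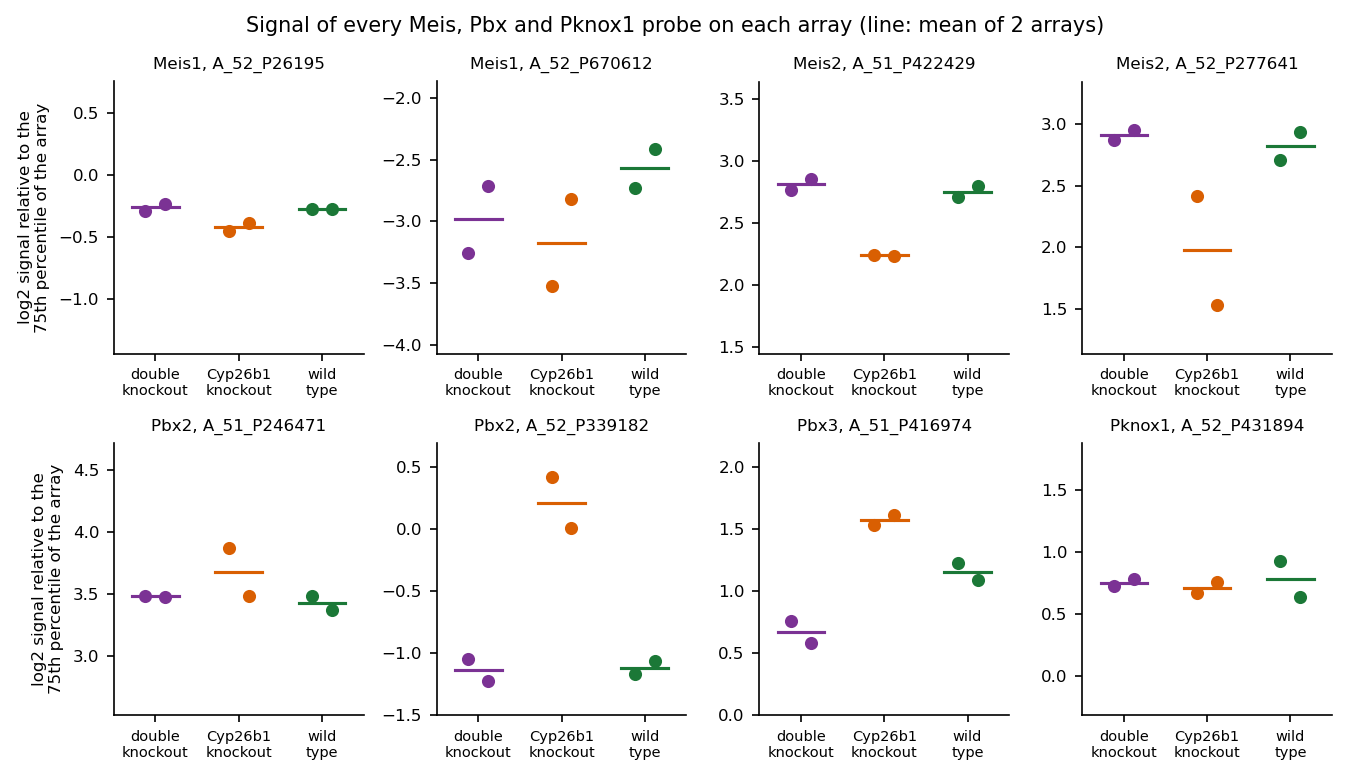
Log2 signal relative to the array's 75th percentile (vertical axis) of each of the 8 probes on every array, by genotype. Points are arrays and lines the means of 2 arrays. The Meis2 probes are low and Pbx2 A_52_P339182 is high on the Cyp26b1 knockout arrays, while Pbx3 is lowest on the double knockout arrays.

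**Figure D2:**
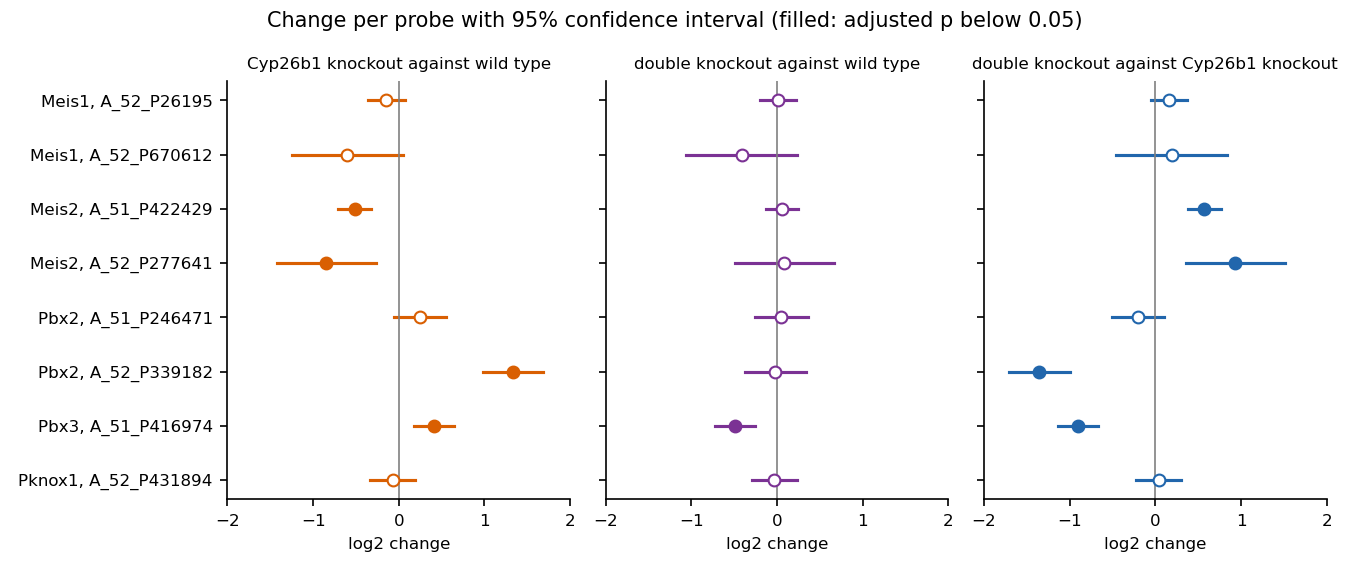
Log2 change of each member probe (horizontal axis) with its 95% confidence interval in the 3 comparisons. Filled points have an adjusted p below 0.05, as do 4 probes in the first panel, 1 in the second and 4 in the last.

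Meis2, a DNA-binding partner of Pbx and Hox proteins in limb, brain and other tissues, was lower in the Cyp26b1 knockout than in either other genotype, and this held for both of its probes. The level of probe A_51_P422429 was 2.77 and 2.85 on the double knockout arrays, 2.24 and 2.23 on the Cyp26b1 knockout arrays and 2.71 and 2.80 on the wild type arrays. The other probe, A_52_P277641, had levels of 2.87 and 2.95 in the double knockout, 2.42 and 1.54 in the Cyp26b1 knockout and 2.71 and 2.94 in wild type. On both probes every Cyp26b1 knockout array lay below every other array. The first probe was tight within each genotype, whereas the Cyp26b1 knockout arrays of the second stood 0.88 apart.

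Against wild type, probe A_51_P422429 showed a log2 change of -0.52 ± 0.08 in the Cyp26b1 knockout, a 1.43-fold lower signal (SE, adjusted p = 0.001692). Probe A_52_P277641 fell by 0.85 ± 0.25, or 1.80-fold (SE, adjusted p = 0.02288). These are middling sizes in that comparison, where 45.0% and 24.7% of all tested probes changed at least as much. Between the mutants the same probes were higher in the double knockout, by 0.57 ± 0.08 (adjusted p = 0.001522) and 0.93 ± 0.25 (adjusted p = 0.01861). Against wild type the double knockout differed by 0.06 on the first probe, with a 95% interval of -0.13 to 0.25, and by 0.09 on the second, with an interval of -0.49 to 0.66. Neither passed, with adjusted p of 0.6727 and 0.8504, and the second interval is the wider of the pair.

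The Cyp26b1 knockout was lower than wild type on both probes in every setting that fitted them, but the call depended on the setting. For the first probe it depended on the background treatment. With normexp fitted without marked spots that probe was at -0.44 and passed (adjusted p = 0.002822). For the second it depended on the wild type arrays, the filter on dim probes and the eBayes trend. With normexp over all spots the second was at -0.63 and passed (adjusted p = 0.002484). With normexp background correction over all spots, A_51_P422429 was at -0.24 in the Cyp26b1 knockout against wild type (adjusted p = 0.4406), where the median of all probes was itself -0.35, so that relative to this median it was 0.11 higher. Between the mutants its change was then 0.46 (adjusted p = 0.05969). For A_52_P277641 the adjusted p became 0.05614 without wild type array 1 and 0.1143 without wild type array 2. It became 0.0507 without the filter on dim probes and 0.05685 without the intensity trend in eBayes. Its change was -1.29 without Cyp26b1 knockout array 1 and -0.41 without array 2, and both still passed. Between the mutants its change was 1.37 without Cyp26b1 knockout array 1 and 0.49 without array 2. It did not pass without either double knockout array, with adjusted p of 0.0532 and 0.06851, nor with the scaling of the authors' table (0.63, adjusted p = 0.07053).

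The promoter of Meis2 is shown because the gene moved on both probes and retinoic acid is known to act on it elsewhere. The sequence is that of RefSeq on build GRCm38.p6, chr2:116064620-116064869 on the minus strand, the 250 bases before the start of transcription, with CG dinucleotides in capitals.
Meis2: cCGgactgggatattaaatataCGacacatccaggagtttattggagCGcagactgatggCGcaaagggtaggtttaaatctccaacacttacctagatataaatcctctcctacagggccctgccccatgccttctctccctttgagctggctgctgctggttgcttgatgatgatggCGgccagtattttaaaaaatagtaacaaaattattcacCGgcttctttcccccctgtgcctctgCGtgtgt
This stretch holds 47.6% G and C and 7 CG dinucleotides. Over 32851 promoters of the same length the median was 52.4% G and C, with quartiles of 45.2% and 61.2%, and 6 CG dinucleotides, with quartiles of 2 and 16. Motifs of the retinoic acid receptor were searched by their letters on both strands, and none lay in this window. AGGTCA was found in 14.0% of all promoters and GGGTCA in 11.6% of them. AGTTCA was found in 11.8% and GGTTCA in 8.8%. The Meis and Pknox motif TGACAG, found in 15.9% of promoters, was not in it either. The same held for the Pbx and Hox motif TGATTGAT, found in 0.7%, and its variant TGATTGAC, also in 0.7%.

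Meis1, the closest relative of Meis2 and a known partner of Hox proteins in blood stem cells, did not pass in any comparison in the fit without a block. Probe A_52_P26195 had levels of -0.29 and -0.23 on the double knockout arrays, -0.45 and -0.39 on the Cyp26b1 knockout arrays and -0.28 and -0.28 on the wild type arrays. The Cyp26b1 knockout arrays lay just below the rest, by a change of -0.14 ± 0.09 against wild type (SE, adjusted p = 0.2155) whose 95% interval ran from -0.36 to 0.07. The dimmer probe, A_52_P670612, had levels of -3.25 and -2.71 in the double knockout, -3.52 and -2.82 in the Cyp26b1 knockout and -2.73 and -2.41 in wild type. Here the 2 arrays of each genotype lay far apart, by 0.31 to 0.70, and the double knockout and Cyp26b1 knockout arrays overlapped.

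On that dimmer Meis1 probe the Cyp26b1 knockout stood at -0.60 ± 0.28 against wild type (adjusted p = 0.1046), with a 95% interval of -1.25 to 0.05. Without Cyp26b1 knockout array 2 it was -0.95 and passed (adjusted p = 0.03166), and without array 1 it was -0.25 (adjusted p = 0.4803). With array number as a replicate block it passed at -0.60 (adjusted p = 0.01543). The double knockout against wild type gave -0.41, with an interval of -1.06 to 0.24 (adjusted p = 0.3653). Between the mutants it was 0.19 (adjusted p = 0.6033). On probe A_52_P26195 these values were 0.01 and 0.16, with adjusted p of 0.9338 and 0.19. The intervals of the dimmer probe thus include changes as large as those of Meis2, while those of A_52_P26195 are narrower. Without scaling between arrays, where the median of all probes in the Cyp26b1 knockout against wild type was -0.45, this narrower probe was at -0.55 and passed (adjusted p = 0.02816). The dimmer probe was then at -1.01 and also passed (adjusted p = 0.01644).

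Pknox1, also called Prep1, is a broadly expressed partner that competes with Meis proteins for Pbx. Its probe A_52_P431894 had levels of 0.72 and 0.78 on the double knockout arrays, 0.67 and 0.75 on the Cyp26b1 knockout arrays and 0.93 and 0.64 on the wild type arrays. All 3 genotypes overlapped, and the wild type arrays alone spanned the others. The change was -0.07 in the Cyp26b1 knockout against wild type, with a 95% interval of -0.33 to 0.19 (adjusted p = 0.6219). It was -0.03 in the double knockout against wild type, with an interval of -0.29 to 0.23 (adjusted p = 0.8847). Between the mutants it was 0.04, with an interval of -0.22 to 0.30 (adjusted p = 0.791). Without scaling it was at -0.48 in the Cyp26b1 knockout against wild type and passed (adjusted p = 0.03901), close to the -0.45 of the median probe in that setting.

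Pbx2, a widely expressed Pbx protein, gave different readings on its 2 probes. The bright probe A_51_P246471 had levels of 3.48 and 3.48 on the double knockout arrays, 3.87 and 3.48 on the Cyp26b1 knockout arrays and 3.49 and 3.37 on the wild type arrays. Cyp26b1 knockout array 1 was high and array 2 had the level of the double knockout arrays. Probe A_52_P339182 had levels of -1.05 and -1.23 in the double knockout, 0.42 and 0.01 in the Cyp26b1 knockout and -1.17 and -1.07 in wild type. There both Cyp26b1 knockout arrays stood more than 1 log2 unit above the other 4 arrays, which overlapped one another.

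On A_52_P339182 the Cyp26b1 knockout was 2.52-fold higher than wild type, a log2 change of 1.33 ± 0.15 (SE, adjusted p = 0.0004328), and 10% of all tested probes changed at least as much. The double knockout was 2.56-fold lower than the Cyp26b1 knockout, a log2 change of -1.35 ± 0.15 (SE, adjusted p = 0.0006974). Against wild type the double knockout was at -0.02, with a 95% interval of -0.37 to 0.34 (adjusted p = 0.9472). Both calls of this probe held in every other setting that fitted it and with each array left out, with changes between 0.93 and 1.54 for the Cyp26b1 knockout against wild type and between -1.66 and -1.02 between the mutants.

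On A_51_P246471 the Cyp26b1 knockout stood at 0.25 ± 0.13 against wild type (adjusted p = 0.1409), with a 95% interval of -0.05 to 0.56. The interval of the other probe, 0.98 to 1.69, lies above it. The change between the mutants was -0.20 (adjusted p = 0.2459) and that in the double knockout against wild type 0.05 (adjusted p = 0.8245). Without Cyp26b1 knockout array 2 the first of these was 0.45 and passed (adjusted p = 0.01112), and the change between the mutants was -0.39 and passed (adjusted p = 0.02092). Without array 1 they were 0.06 (adjusted p = 0.6565) and -0.002 (adjusted p = 0.9858). Quantile normalization gave 0.36 in the Cyp26b1 knockout against wild type, which passed (adjusted p = 0.02107), whereas without scaling it was -0.16 and did not. The sources used here do not say which Pbx2 transcripts each probe binds, and the difference between the probes was not tested.

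The promoter of Pbx2 is shown for contrast with that of Meis2, the other gene with a called probe and an entry in the promoter table. Its coordinates are chr17:34592009-34592258 on the plus strand of GRCm38.p6, from RefSeq, with CG dinucleotides in capitals.
Pbx2: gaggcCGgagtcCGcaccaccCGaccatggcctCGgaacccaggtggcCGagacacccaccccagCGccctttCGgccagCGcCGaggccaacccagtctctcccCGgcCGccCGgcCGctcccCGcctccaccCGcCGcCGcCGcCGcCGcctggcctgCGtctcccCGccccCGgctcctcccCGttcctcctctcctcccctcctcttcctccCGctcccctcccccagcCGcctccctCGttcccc
It holds 77.6% G and C and 27 CG dinucleotides, both above the upper quartile of all promoters and above the values for Meis2. None of the 7 motifs searched was found in it. The Meis1 promoter, at 59.6% G and C with 13 CG dinucleotides, lies between them and also held none of the motifs.

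Pbx3, a Pbx protein known for its part in breathing circuits of the hindbrain and in leukaemia, was the only member probe that passed in all 3 comparisons. Probe A_51_P416974 had levels of 0.76 and 0.58 on the double knockout arrays, 1.54 and 1.61 on the Cyp26b1 knockout arrays and 1.23 and 1.09 on the wild type arrays. The 3 genotypes did not overlap, with the double knockout lowest, wild type between and the Cyp26b1 knockout highest. The double knockout fell by 0.49 ± 0.10 against wild type, or 1.40-fold (SE, adjusted p = 0.02466), and 20.8% of all tested probes changed at least as much. The Cyp26b1 knockout was 0.42 ± 0.10 higher than wild type, or 1.34-fold (SE, adjusted p = 0.01025), and 53.6% of all tested probes changed at least as much. The double knockout was 1.87-fold lower than the Cyp26b1 knockout, a log2 change of -0.90 ± 0.10 (SE, adjusted p = 0.0006732).

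Of these 3 calls, that between the mutants held under every setting, with changes between -1.21 and -0.57. The double knockout against wild type did not pass without double knockout array 2 (-0.40, adjusted p = 0.1089), without wild type array 1 (-0.42, adjusted p = 0.1452) or without wild type array 2 (-0.56, adjusted p = 0.08882). It also missed the threshold with normexp over all spots (-0.37, adjusted p = 0.4531), without scaling (-0.56, adjusted p = 0.07033) and without the intensity trend in eBayes (adjusted p = 0.06337). The Cyp26b1 knockout against wild type did not pass without wild type array 2 (0.35, adjusted p = 0.07545). Without scaling between arrays it was 0.01 (adjusted p = 0.9709), where the median of all probes was -0.45.

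**Figure D3:**
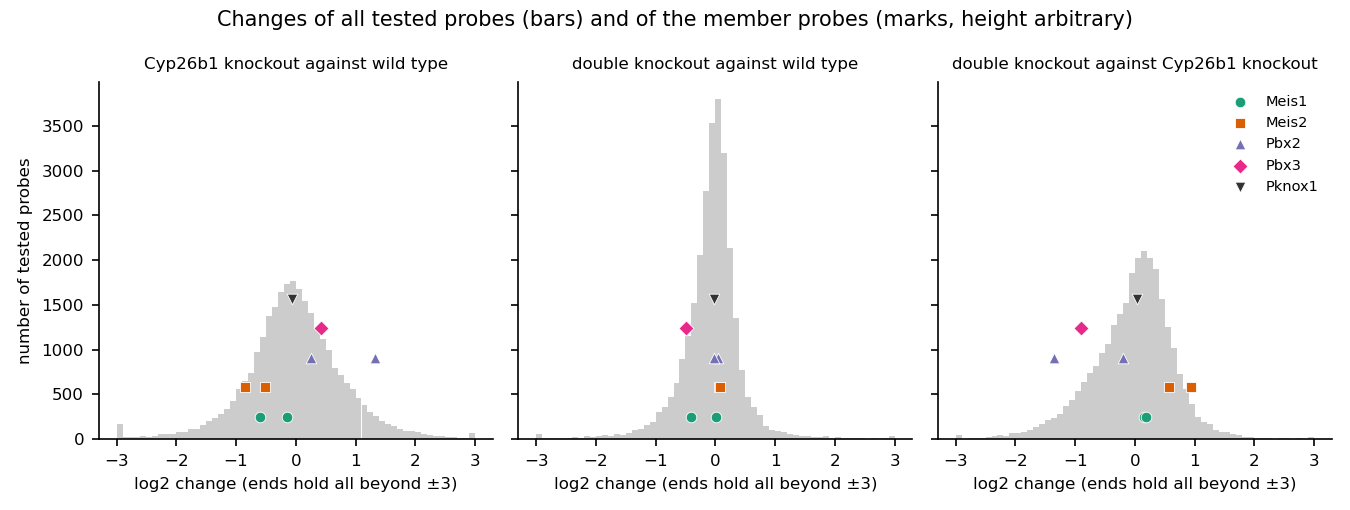
Histograms of the log2 change of all 27865 tested probes (grey bars, number of probes on the vertical axis) with the member probes marked by gene at arbitrary heights. The outermost bars hold all changes beyond 3 in size. The marks lie inside the bulk of each histogram, with Pbx2 A_52_P339182 farthest out in the first and last panels.

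**Figure D4:**
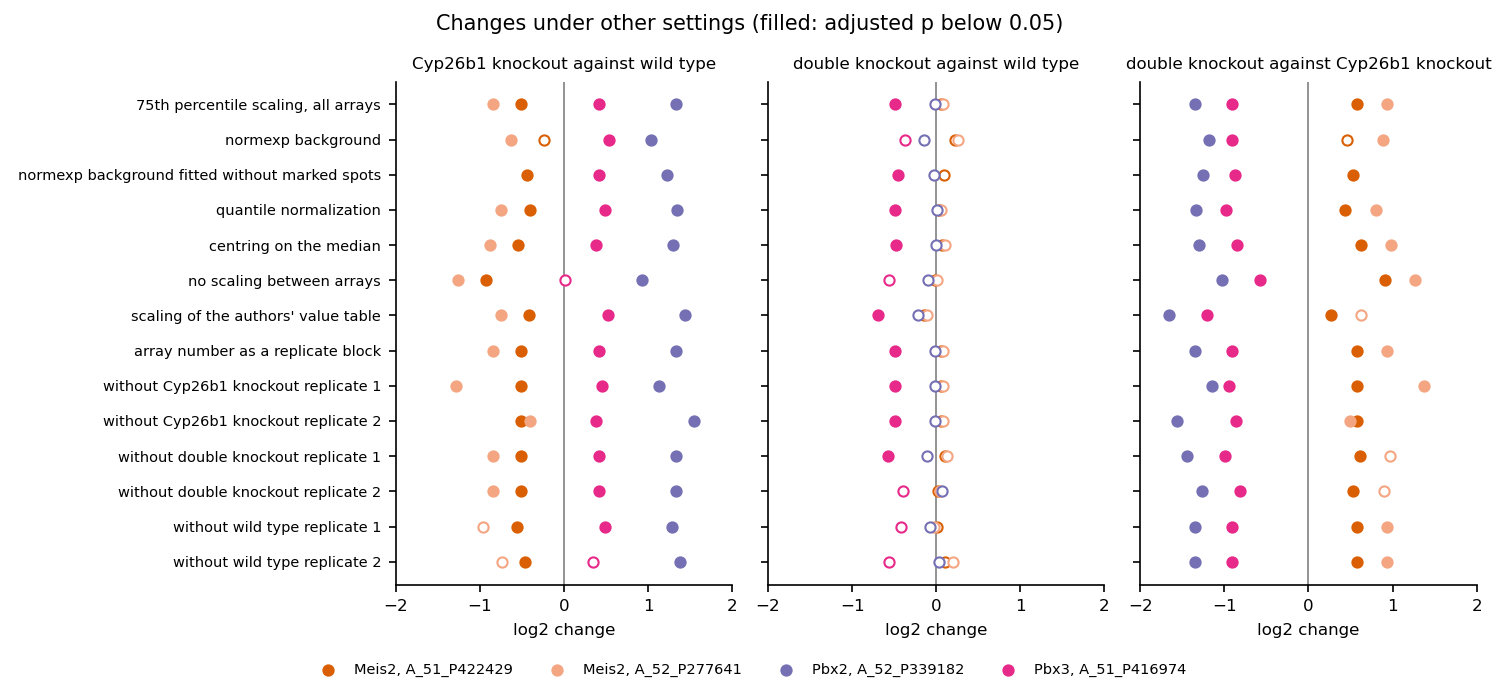
Log2 change (horizontal axis) of the 4 probes that passed in at least 1 comparison, under the main setting and others. Filled points have an adjusted p below 0.05, and 1 probe is absent under normexp fitted without marked spots. Pbx2 A_52_P339182 kept both its calls in every row, while Pbx3 in the double knockout against wild type lost its call in 5 of the rows shown.

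The 13 other TALE genes of the array were examined with their brightest probe. The Iroquois genes Irx1, Irx3 and Irx5 did not enter the test, since no genotype had both arrays well above background (Irx1 was so on 1 Cyp26b1 knockout array), and 10 genes were tested. In the Cyp26b1 knockout against wild type 0 rose, 4 fell and 6 did not pass. Of all tested probes, 25.2% rose and 28.2% fell there. Tgif2, a repressor in the TGF-beta pathway, fell by 0.53 (adjusted p = 0.005466), and Pbx4, a Pbx protein of the adult testis, by 0.59 (adjusted p = 0.01295). On its other, dimmer probe Pbx4 stood at 0.29 in this comparison and did not pass (adjusted p = 0.2518). Mkx, a tendon regulator, fell by 0.56 (adjusted p = 0.0152) and the Iroquois gene Irx6 by 0.59 (adjusted p = 0.04794). Of these, Irx6 passed in 4 of 18 other settings, Mkx and Pbx4 each in 15 of 18 and of 17, and Tgif2 in 17 of 18, each with the same sign throughout.

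Against wild type, 0 of the 10 passed in the double knockout in limma, beside 11.6% of all tested probes, and 0 had an unadjusted p under 0.05. Between the mutants, Tgif2 was 0.52 higher (adjusted p = 0.007818) and Pbx4 0.47 higher (adjusted p = 0.03692), and the other 8 did not pass. In that comparison 5 of the 10 had an unadjusted p under 0.05. Of all tested probes, 23.7% were higher and 22.3% lower there. Tgif2 levels were 5.35 and 5.36 on the double knockout arrays, 4.90 and 4.78 on the Cyp26b1 knockout arrays and 5.24 and 5.50 on the wild type arrays. Like the Meis2 probes, Tgif2 was lowest on the Cyp26b1 knockout arrays. Pbx4 read differently on its other, dimmer probe, which changed by -0.58 between the mutants (adjusted p = 0.04511) but passed in only 5 of 17 other settings and changed sign under normexp over all spots. Pbx4's brighter probe passed there in 10 of 17 other settings.

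Meis3, Pknox2, Tgif1, Irx2 and Irx4 did not pass in any comparison. Between the mutants Meis3 was at -0.34 and Tgif1 at -0.26, with adjusted p of 0.0689 and 0.08247 in limma.

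**Figure D5:**
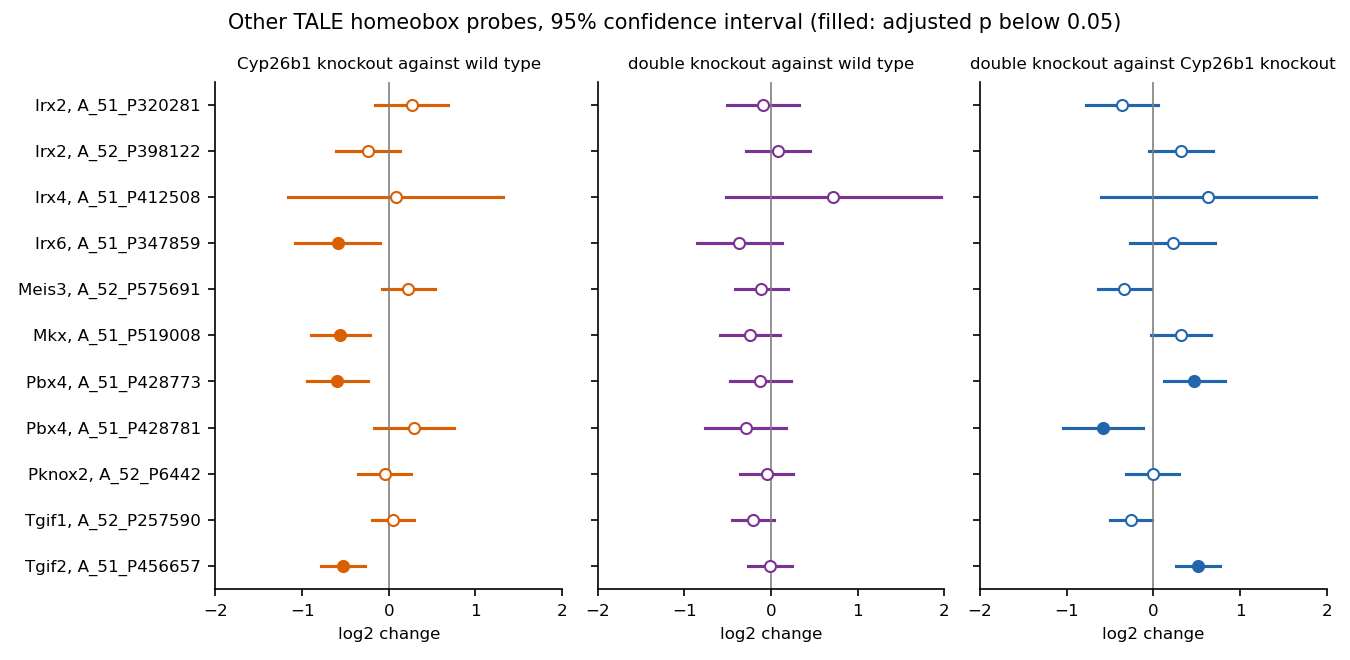
Log2 change (horizontal axis) with its 95% confidence interval for tested probes of 9 other TALE genes in the 3 comparisons. Filled points have an adjusted p below 0.05. Tgif2 lies below 0 in the Cyp26b1 knockout against wild type and above 0 between the mutants, and the Pbx4 probes lie on opposite sides of 0 in the last panel.

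The Hox genes, with which Meis and Pbx proteins bind DNA, were called more often upward than downward in both mutants against wild type. Of 37 on the array 30 were tested. Among these 13 rose, 0 fell and 17 did not pass in the double knockout against wild type, and the median change was 0.36, beside -0.02 over all tested probes. In the Cyp26b1 knockout against wild type 15 rose, 6 fell and 9 did not pass, with a median of 0.22, beside -0.04. Between the mutants 9 were higher and 6 lower. Of all tested probes, 5.09% rose and 6.46% fell in the double knockout against wild type. The shares were 25.2% and 28.2% in the Cyp26b1 knockout against wild type, and between the mutants 23.7% were higher and 22.3% lower.

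Hoxa5, which patterns lung and trunk, was 2.64 ± 0.22 higher in the double knockout (SE, adjusted p = 0.001138) and 2.34 ± 0.22 higher in the Cyp26b1 knockout (adjusted p = 0.0002133), both against wild type. Under normexp over all spots it did not pass against wild type, at 0.37 in the double knockout and 0.03 in the Cyp26b1 knockout. Hoxb6 was 1.39 higher in the Cyp26b1 knockout than in wild type (adjusted p = 0.0004907), and under normexp over all spots it was 0.23 and did not pass. Hoxb7 was higher in the double knockout by 1.11 against wild type (adjusted p = 0.002206) and by 0.98 between the mutants (adjusted p = 0.000725). Between the mutants, Hoxc9 changed by 0.70 (adjusted p = 0.002348) and Hoxc4 by -1.27 (adjusted p = 0.002362). Under normexp over all spots Hoxc4 was -0.36 and did not pass.

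The retinoic acid response list was set beside the members because Meis2 is known as such a gene elsewhere. Of its 20 tested genes, 11 rose and 1 fell in the double knockout against wild type, and 14 rose and 3 fell in the Cyp26b1 knockout against wild type. Of all tested probes, 5.09% rose and 6.46% fell in the former comparison, and 25.2% rose and 28.2% fell in the latter. Rarb, a retinoic acid receptor with a response element of its own, had levels of 0.45 and 0.40 on the double knockout arrays, 0.40 and 0.53 on the Cyp26b1 knockout arrays and -1.52 and -1.44 on the wild type arrays. Both mutants were high and overlapped each other. The Meis2 probes had another order, with the Cyp26b1 knockout below both other genotypes. Dhrs3, a retinaldehyde reductase, was 0.67 higher in the double knockout and 1.02 higher in the Cyp26b1 knockout than in wild type. No member probe was higher than wild type in both mutants by the test.

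Of 9 tested partner genes of TALE proteins, 0 passed in the double knockout against wild type, beside 11.6% of all tested probes, with 0 at an unadjusted p under 0.05. In the Cyp26b1 knockout against wild type 1 rose and 4 fell, beside 25.2% and 28.2% of all tested probes. Between the mutants 3 were higher and 2 lower, beside 23.7% and 22.3%.

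Markers of the cell types of the gonad also differed between the genotypes. In these whole gonads, fewer cells of a type and less RNA per cell cannot be told apart. Summed signals are in multiples of the 75th percentile of the array. The 12 interstitial and peritubular markers summed to 152 to 157 in the double knockout, 104 to 116 in the Cyp26b1 knockout and 120 to 130 in wild type. Against wild type, 4 of them rose and 5 fell in the Cyp26b1 knockout, where 25.2% of all tested probes rose and 28.2% fell. The 6 fetal Leydig cell markers tested summed to 124 to 142 in the double knockout, 84.4 to 107 in the Cyp26b1 knockout and 145 to 165 in wild type, with 1 higher and 4 lower in the Cyp26b1 knockout against wild type. Markers of blood and macrophages summed to 199 to 223 in the double knockout, 145 to 192 in the Cyp26b1 knockout and 199 to 227 in wild type.

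The 11 germ cell markers summed to 92.2 to 103 in the double knockout, 69.6 to 82.3 in the Cyp26b1 knockout and 125 to 130 in wild type. Of these 3 rose and 6 fell in the Cyp26b1 knockout against wild type. Between the mutants 7 were higher and 1 lower, beside 23.7% and 22.3% of all tested probes. The interstitial, Leydig, germ cell and blood sums were lowest on the Cyp26b1 knockout arrays, but single markers of each list went both ways. Of the 8 blood and macrophage markers, 2 rose and 2 fell in the Cyp26b1 knockout against wild type. Of all tested probes, 25.2% rose and 28.2% fell there. The 8 endothelial markers summed to 13.11 to 14.43 in the double knockout, 12.37 to 12.71 in the Cyp26b1 knockout and 12.35 to 13.42 in wild type. Among them 4 rose and 3 fell in the Cyp26b1 knockout against wild type. The 10 Sertoli cell markers, all well above background, summed to 160 to 188 in the double knockout, 180 to 185 in the Cyp26b1 knockout and 143 to 162 in wild type. Mesonephric and duct markers summed to 8.67 to 9.39 in the double knockout, 8.47 to 10.7 in the Cyp26b1 knockout and 12.8 to 14.0 in wild type. In the Cyp26b1 knockout against wild type, 4 Sertoli cell markers rose and 2 fell. There 2 mesonephric and duct markers rose and 4 fell. Foxl2, the defining marker of ovarian somatic cells, did not pass the signal filter in any genotype, nor did Irx3 of the same list. Of its 4 tested genes, 2 rose and 1 fell in the Cyp26b1 knockout against wild type. In the double knockout against wild type 1 rose and 0 fell, and between the mutants 1 was higher and 2 lower. The part of cell composition in the changes of Meis2, Pbx2 and Pbx3 was not tested.

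Genes whose centred levels lay nearest to each called member probe over the 6 arrays were sought among 13294 named genes by Euclidean distance on the log2 scale. For Pbx3 they were Dhx38 at 0.12, Mphosph8 at 0.15 and Stc1 at 0.16. For Pbx2 A_52_P339182 they were Shroom3 at 0.15, Fubp1 at 0.20 and Aldh7a1 at 0.22. Meis2 A_51_P422429 lay nearest to Pi4k2a at 0.05, Wdr45b at 0.07 and Tasp1 at 0.08. Meis2 A_52_P277641, with its spread between the Cyp26b1 knockout arrays, lay nearest to Ccdc38 at 0.17, Creg2 at 0.22 and Klf3 at 0.32. The Meis2 probes thus shared none of their 3 nearest genes.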

How the data were processed

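Whole male gonads were hybridised to one-colour Agilent arrays, 2 arrays for each of 3 genotypes, from 0.2 µg of total RNA per the labels' protocols. The authors read the scans with Feature Extraction from Agilent, release 9.5 in the submitters' processing notes and 9.5.3.1 per the file headers. The deposited scanner files hold intensity values per spot, background-subtracted by that software, with its marks for outlier, saturated and background-level spots. The authors' deposited value table holds 1 ratio per probe and genotype on a linear scale, with column medians of 0.959 (double knockout), 1.119 (Cyp26b1 knockout) and 1.0 (wild type). The sources used here do not say how its values were centred. On the log2 scale it followed the scanner values with a constant shift per comparison, so it served only as an alternative scaling.

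Spots of a probe were averaged after outlier spots were left out, and 25 probes that lost all their spots on an array were left out. The log2 processed intensity minus the 75th percentile of each array was fitted in limma 3.58.1 (R 4.3.3) with a mean per genotype and 3 residual degrees of freedom. A probe entered the test if both arrays of 1 genotype or more showed it well above background. Testing used a two-sided moderated test, an intensity trend in eBayes and Benjamini-Hochberg adjustment. The fit was tested on simulated data. An exact permutation test of 2 arrays against 2 cannot give a p below 0.333, so none is reported. The number of arrays limits the precision.

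Accessions were named through RefSeq genes of GRCm38.p6: 23363 probes have 1 symbol and 17786 have none. The member genes and all lists were chosen with earlier results of these data known. Named genes were every member probe, the tested other TALE genes, 3 Hox genes per comparison by adjusted p, and Cyp26a1, Rarb, Dhrs3 and Stra8. Some genes that this rule names are not reported here. The other background settings used median spot intensity, since the files hold no mean. Alternatives were normexp over all spots or without marked spots, quantile normalization, median centring, no scaling, other filters, the brightest probe per gene, eBayes without trend, only the 4 arrays compared, a block of array number, and each array left out. The other probes of Meis1 and Meis2 were also planned as alternatives. The authors' scaling and the other probe of Pbx2 were added after seeing the data.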

Additional observations from a re-analysis of the deposited data

How the results depend on the processing

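Of 156 tested alternative values for the 9 member changes that passed, 139 still passed, 17 did not and 0 changed direction. Filters, eBayes, the block and arrays not compared move only p-values, so only other settings test direction. The authors' deposited table, without a test, kept all 9 directions. Of 264 tested values for the 15 that did not pass, 11 passed and 26 changed sign, as did 8 of 15 in that table. The number of member probes that passed in the Cyp26b1 knockout against wild type was 4, and 2 with the brightest probe per gene, where 5 probes are counted. It was 2 to 6 with 1 array left out. In the double knockout against wild type it was 1, and 0 with normexp over all spots, without scaling and without the eBayes trend, and 0 to 1 with 1 array left out. Between the mutants (double knockout relative to Cyp26b1 knockout) it was 4, and 2 with the brightest probe per gene and 3 to 5 with 1 array left out.

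Settings also moved the median change of all probes. In the double knockout against wild type, the Cyp26b1 knockout against wild type and between the mutants it was -0.02, -0.04 and 0.04. It was -0.10, -0.45 and 0.37 without scaling, -0.22, 0.06 and -0.27 with the scaling of the authors' table, and -0.20, -0.35 and 0.21 with normexp over all spots. Without the filter on dim probes it was 0.04, -0.19 and 0.18. The share of calls that were higher was 44.1%, 47.2% and 51.5%. It became 29.7%, 16.6% and 80.9% without scaling, 12.3%, 56.8% and 19.3% with the authors' scaling, and in the last comparison 65.5% without the filter. With normexp over all spots it was 60.7% in the double knockout against wild type. Calls in that comparison numbered 1419 higher and 1800 lower, and 346 higher and 224 lower with that normexp.

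Some changes that did not pass took the other sign in another setting, on the other probe or with 1 array left out. Without scaling they were 0.132 for Pbx2 A_51_P246471 between the mutants and -0.157 in the Cyp26b1 knockout against wild type. They were -0.063 for Meis1 A_52_P26195, -0.018 for Meis2 A_51_P422429 and -0.025 for Pbx2 A_51_P246471 in the double knockout against wild type. With the scaling of the authors' deposited table, or its values as they stand, Pknox1 was 0.032 in the Cyp26b1 knockout against wild type. Meis1 A_52_P26195 was then -0.186 in the double knockout against wild type, Meis2 -0.142 and -0.114, and Pbx2 A_51_P246471 -0.148. Between the mutants the Meis1 probes were then -0.145 and -0.114 and Pknox1 -0.264. With quantile normalization Pbx2 A_52_P339182 was 0.007 in the double knockout against wild type and Pknox1 -0.02 between the mutants. With normexp over all spots Pknox1 was 0.005 in the double knockout against wild type. The dimmer Meis1 probe, at -0.411, and the dimmer Pbx2 probe, at -0.019, differed in sign from the brighter one in the double knockout against wild type. With 1 array left out, the range in the double knockout against wild type was -0.013 to 0.041 for Meis1 A_52_P26195, -0.026 to 0.199 for Meis2 A_52_P277641, -0.007 to 0.112 for Pbx2 A_51_P246471, -0.109 to 0.071 for Pbx2 A_52_P339182 and -0.174 to 0.113 for Pknox1 A_52_P431894. With 1 array left out, the range in the Cyp26b1 knockout against wild type was -0.214 to 0.073 for Pknox1 A_52_P431894. With 1 array left out, the range between the mutants was -0.161 to 0.54 for Meis1 A_52_P670612 and -0.004 to 0.085 for Pknox1 A_52_P431894. The cause was not tested.

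Arrays carry numbers 1 and 2 in each genotype. Deviations of arrays with the same number correlated at 0.108 between the double and Cyp26b1 knockouts, 0.222 between the double knockout and wild type and 0.101 between the Cyp26b1 knockout and wild type. The numbers are not labelled as a shared litter or day. With array number as a replicate block the counts were 1, 5 and 4, where Meis1 A_52_P670612 was added in the Cyp26b1 knockout against wild type (adjusted p = 0.01543). The slide block was not run, since each slide held 1 genotype.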
